A study of Homo sapiens with 87 samples.

Results

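S100A4, S100A6, S100A10, S100A11 and S100A13 of the S100 family and ANXA1, ANXA2, ANXA3, ANXA5 and ANXA6 of the annexin family were followed through knockouts of the BAF complex in the human HAP1 line. These 10 genes, of the 35438 listed in each of 2 gene tables, belong to families of calcium-binding proteins. They were selected on CPM values of these same libraries, in which S100A6 and ANXA1 change strongly. Because those 2 genes were chosen by their levels in both tables, their levels are given as a description with no test. The other 8 were tested as single genes, with p-values adjusted over all genes tested. ANXA3 had at most 5 counts in any library and was removed by the filter on low counts in both tables, so 9 of the 10 genes were fitted and 7 were tested.

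S100 proteins are small EF-hand proteins. In most of them, though not in every member, binding of calcium opens a surface that grips a target protein, and most work as dimers. Annexins bind acidic membrane lipids when calcium is present, and through this they take part in membrane repair, endocytosis, exocytosis and the anchoring of actin to membranes. The families meet in fixed pairs, since S100A10 (p11) holds the N-terminus of annexin A2 in a heterotetramer and S100A11 binds annexin A1.

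HAP1 is an adherent, nearly haploid line that descends from a leukaemia line, and BAF (SWI/SNF) is a complex that shifts nucleosomes along DNA with SMARCA4 or SMARCA2 as its motor. The knockout table holds 75 libraries of 25 groups with n = 3 each. They are unmodified wild type and 24 clones of 22 knocked-out genes, namely ACTB, ARID1A (clones 618-10 and 618-3), ARID1B, ARID2, BCL11A, BCL11B, BCL7A, BCL7B, BRD7, BRD9, DPF1, DPF2, DPF3, PBRM1, PHF10, SMARCA2, SMARCA4 (clones 2878-4 and 2878-6), SMARCC1, SMARCC2, SMARCD1, SMARCD2 and SMARCD3. The labels name no clone for the SMARCC2 libraries, which are counted as a clone here, and a single clone for every knockout other than ARID1A, SMARCA4 and SMARCC2, so that a property of the clone and of the lost gene cannot be told apart. Wild type in this table is likewise a single clone, labelled C631. Every difference from wild type may thus also carry what is particular to that clone. The double-loss table holds 12 libraries of 6 groups with n = 2 each: wild type, ARID2 knockout and SMARCA4 knockout cells with a control knockdown, wild type with knockdown of both SMARCA4 and ARID2, ARID2 knockout with SMARCA4 knockdown, and SMARCA4 knockout with ARID2 knockdown. No clone is named for the knockouts of that table either. The SMARCC2 libraries carry sample numbers from the run of the double-loss libraries, apart from all others of the knockout table. They are also missing from the authors' log2 TPM values. For SMARCC2, the lost gene and a separate set of libraries cannot be told apart. The labels do not state whether the replicates of a group were grown separately, and the spread that the p-values measure may be technical.

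Library totals were 14917644 to 29993652 counts for knockout clones and wild type, and 9144150 to 19789622 for the double-loss groups. The targeted gene's own mean was below wild type in 22 of 24 clones, with a median clone to wild-type ratio of 0.416. The clones labelled as BCL11A and BCL11B knockouts were the exceptions (ratios 1.09 and 1.39). SMARCA4 knockdown left unequal amounts in the 2 libraries of a group, 43.1 and 130 CPM in wild type with both knockdowns and 10.7 and 28.3 CPM in ARID2 knockout cells, against a mean of 307 CPM in wild type with control knockdown. Of 8 blood lineage genes, GATA2 had 19.0 to 43.4 CPM in knockout-table libraries and 12.5 to 39.6 CPM in double-loss libraries, and PTPRC, the pan-leukocyte gene CD45, never exceeded 0.262 CPM. TAL1, a blood progenitor factor, ran from 0.420 to 73.5 CPM in the knockout table with 9 clones called higher and 14 lower than wild type. KIT, a progenitor receptor, was called lower in 7 clones, among them both SMARCA4 (log2 fold change -6.14 and -5.99) and both ARID1A clones (-3.67 and -4.01). The summed level of 7 fibroblast genes ranged from 19.0 to 330 CPM over the knockout groups and was highest in the 2 SMARCA4 clones (300 and 330 CPM, wild type 26.2 CPM). DCN and LUM, which define fibroblasts, stayed at or below 0.263 and 0.264 CPM in every knockout library. Summed levels of 7 genes of A549, the other cell line in the culture protocol, and of 6 epithelial genes were at most 9.38 and 15.8 CPM in any library.

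The stretches just before the start sites of S100A6 and ANXA1 are shown because the members were chosen around these 2 genes and their upstream DNA differs in CpG content. The first reads chr1:153535992-153536241 on the minus strand and the second chr9:73151615-73151864 on the plus strand of GRCh38.p14, 250 bases each, from RefSeq, written 5′ to 3′ with every CpG in capitals.
S100A6: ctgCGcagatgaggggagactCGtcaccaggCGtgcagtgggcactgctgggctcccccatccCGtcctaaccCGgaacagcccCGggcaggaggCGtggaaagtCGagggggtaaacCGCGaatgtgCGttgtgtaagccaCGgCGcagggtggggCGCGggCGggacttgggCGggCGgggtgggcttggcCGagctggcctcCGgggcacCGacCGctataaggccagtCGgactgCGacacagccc
ANXA1: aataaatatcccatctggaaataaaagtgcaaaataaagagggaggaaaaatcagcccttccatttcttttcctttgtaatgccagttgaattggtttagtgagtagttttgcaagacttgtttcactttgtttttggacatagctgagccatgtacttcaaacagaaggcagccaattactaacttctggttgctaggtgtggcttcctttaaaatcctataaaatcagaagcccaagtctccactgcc
The S100A6 window held 24 CpG, more than 76.3% of 35114 upstream windows of the same length, and 70.0% G or C. The ANXA1 window held 0 CpG and 38.4% G or C. GGGCGG, counted on both strands and with overlaps, occurred 3 times upstream of S100A6 and not upstream of ANXA1 (42.6% of all windows hold it). TATAAA, on both strands, occurred 1 time upstream of ANXA1 and not upstream of S100A6 (10.7% of all windows). The S100A6 window holds the near match TATAAG close to its end, which was not counted. TGANTCA, which reads the same on both strands, was in neither window (6.57% of all windows). These are matches of letters only.

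S100A6, a small S100 protein of proliferating and adherent cells that binds CACYBP, had a graded level in 18 groups and was nearly absent from the other 7. Wild-type libraries had 21.0, 19.7 and 17.4 CPM (the gene's counts scaled to the total of its library), a mean of 19.4 ± 1.83 CPM (SD, n = 3). Libraries of the clones BCL11A 2426-10, BCL11B 2432-10, BCL7A 2434-10, BRD7 923-10, SMARCC1 2476-12, SMARCD1 2478-6 and SMARCD3 2480-12 held only 1 to 4 counts each, where the table's lowest possible value is 1. In bulk RNA, fewer expressing cells and less RNA per cell cannot be told apart. By the lower limit of the 95% exact binomial interval of the summed counts, wild type exceeded the BCL11A clone (2, 1 and 2 counts) at least 102-fold. This limit was 73.1-fold for the BRD7 clone (2, 2 and 4 counts) and between 96.3- and 119.5-fold for the other 5 clones. The limits cover counting error only. No value in the table was under 1, and 39.9% to 47.2% of genes stood at 1 in each library. A value of 1 may thus stand for no read at all, so only lower bounds are given. Of these 7 clones, 6 carry clone numbers from 2426 to 2480, and the remaining clone in that range, ACTB 2471-10, had the highest S100A6 level of all. What these clones share besides their numbers was not tested.

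PBRM1 knockout stood between the near-absent clones and the rest, with 2.26, 2.11 and 0.854 CPM. DPF1 knockout had 5.84, 4.24 and 4.25 CPM, and ARID2 knockout 10.2, 10.7 and 5.83 CPM. All 9 libraries of these 3 clones were below the lowest wild-type library. At the other end, ACTB knockout had 63.5, 62.8 and 60.6 CPM and BCL7B knockout 42.5, 47.2 and 44.3 CPM, with no overlap with wild type or with each other. As a description with no test, S100A6 was at least 1 log2 unit above wild type in 2 clones and at least 1 below it in 10. When the 25 groups were ordered by mean, the libraries of 18 of the 24 neighbouring pairs overlapped. The clear steps were ACTB above BCL7B, BRD9 above SMARCA4 2878-6, SMARCC2 above SMARCA2, SMARCA2 above ARID2, DPF1 above PBRM1 and PBRM1 above BRD7.

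**Figure D1:**
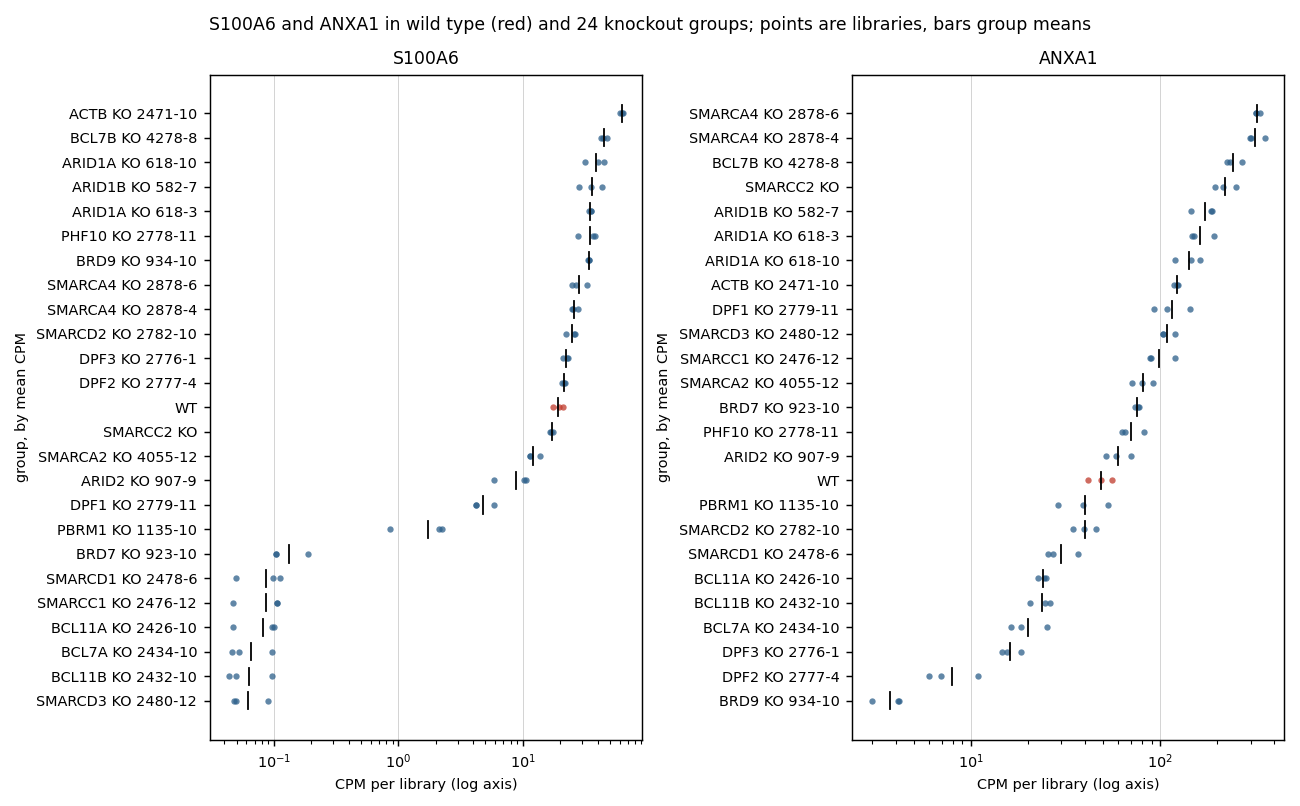
CPM per library on a log axis for S100A6 (left) and ANXA1 (right) in 25 groups ordered by mean. Points are libraries, bars are group means and wild type is red. S100A6 falls from 62.3 CPM in the ACTB clone to 7 clones at 0.0622 to 0.131 CPM, while ANXA1 runs without such a break from 326 to 3.75 CPM.

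NMI, which binds Myc family proteins, had the pattern most like that of S100A6. Over the 25 group means of log2 CPM, its Pearson r with S100A6 was 0.94, the highest of 11946 genes compared. ADPRH, an ADP-ribosyl hydrolase, followed with r = 0.88 and WDFY2, an endosomal protein, with r = 0.86. These values describe groups that share libraries and the scaling of each library, and no p is attached to them. NMI had a mean of 4.63 CPM in wild type and at most 0.101 CPM in the 6 near-absent clones numbered 2426 to 2480. WDFY2 had 21.3 CPM in wild type and 4.32 to 5.75 CPM in those 6 clones, with 18.7 CPM or more in every other group. The BRD7 clone differed from the 6, since it had 1.28 CPM of NMI and 21.8 CPM of WDFY2 although its S100A6 was near-absent too. No other member ranked near the top of this list: ANXA5 came closest with r = 0.46, at rank 381.

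**Figure D2:**
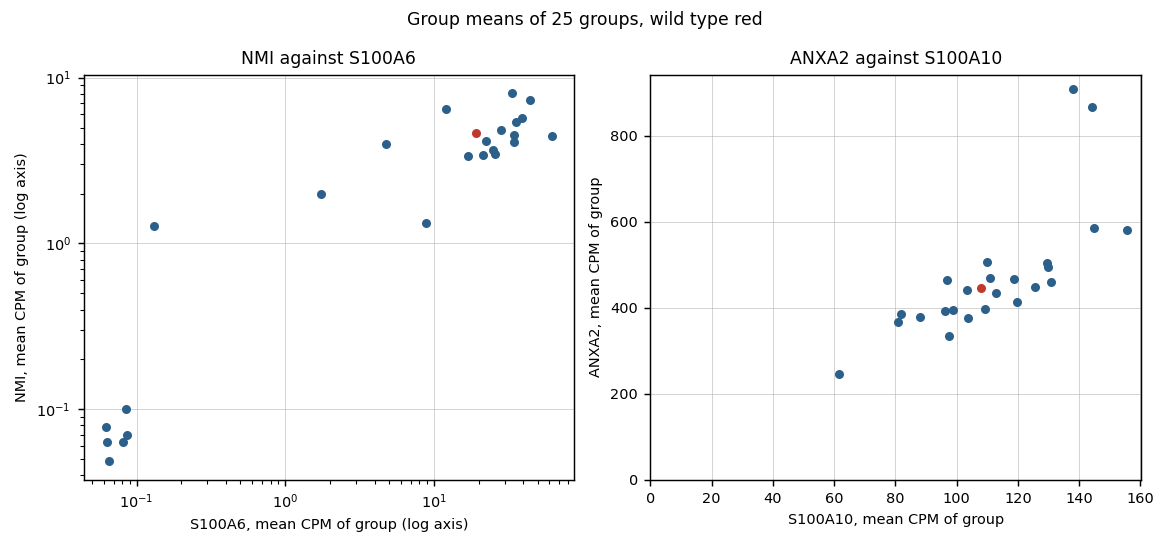
Mean CPM of each of 25 groups for NMI against S100A6 (left, both axes log) and for ANXA2 against S100A10 (right, linear axes), with wild type in red. On the left 6 clones lie at the lower corner and the BRD7 clone stands apart at 0.131 CPM of S100A6 and 1.28 CPM of NMI. On the right the SMARCA4 clones lie above the other groups at 866 and 909 CPM of ANXA2.

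ANXA1, the glucocorticoid-induced annexin known for restraining inflammation, varied in both directions. Wild-type libraries had 55.6, 48.7 and 41.4 CPM (48.6 ± 7.09 CPM, SD, n = 3). SMARCA4 clone 2878-6 had 320, 320 and 337 CPM and clone 2878-4 had 300, 296 and 356 CPM, all above every library of every other group. BCL7B knockout followed with 270, 226 and 235 CPM and SMARCC2 knockout with 195, 216 and 251 CPM. BRD9 knockout was lowest with 4.17, 2.99 and 4.09 CPM, and DPF2 knockout next with 10.9, 6.92 and 5.99 CPM. Neither overlapped with wild type or with each other.

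On the log2 scale of the fit, ANXA1 differed from wild type by 2.74 (SE 0.180) and 2.76 (SE 0.180) in the 2 SMARCA4 clones, 2.32 (SE 0.177) in the BCL7B clone, -3.70 (SE 0.217) in the BRD9 clone and -2.62 (SE 0.196) in the DPF2 clone. It was at least 1 log2 unit above wild type in 11 clones and at least 1 below it in 6, again with no test. DPF1, DPF2 and DPF3 encode related PHD-finger subunits, and their clones had mean ANXA1 levels of 115, 7.93 and 16.2 CPM. The BCL7A and BCL7B clones, of another subunit family, had 19.9 and 243 CPM. The genes with the pattern most like that of ANXA1 over the 25 group means were STEAP1B (r = 0.77), DOCK11 (r = 0.74), an activator of CDC42, and PKIG (r = 0.73), an inhibitor of protein kinase A. STEAP1B had 12.3 CPM in wild type and 28.5 and 28.3 CPM in the SMARCA4 clones. ANXA1 and S100A6 themselves were weakly alike over the 25 groups (r = 0.25). The BRD9 clone, with the least ANXA1, had 33.8 CPM of S100A6, above wild type, and the SMARCD3 clone, with the least S100A6, had 109 CPM of ANXA1.

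Among the 7 tested members, each compared with wild type in 24 clones, 9 of 168 pairs of gene and clone were called higher (5.36%; a call needs an adjusted p of 0.05 and a log2 fold change of 1 in size) and 5 lower (2.98%), against 2.46% and 2.24% of the pairs over all 16159 genes tested. The members' share was above that of all genes for higher calls and close to it for lower calls. Of the 9 higher calls, 5 were of S100A11. The members were selected on CPM values of these same libraries. These shares and those given below for the members are thus a description, and their distance from all genes was not tested. The 14 calls came from S100A4, S100A11, S100A13 and ANXA2. The median log2 fold change over the 168 pairs was 0.06, and the medians of all genes lay between -0.02 and 0.01 in the 24 clones.

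**Figure D3:**
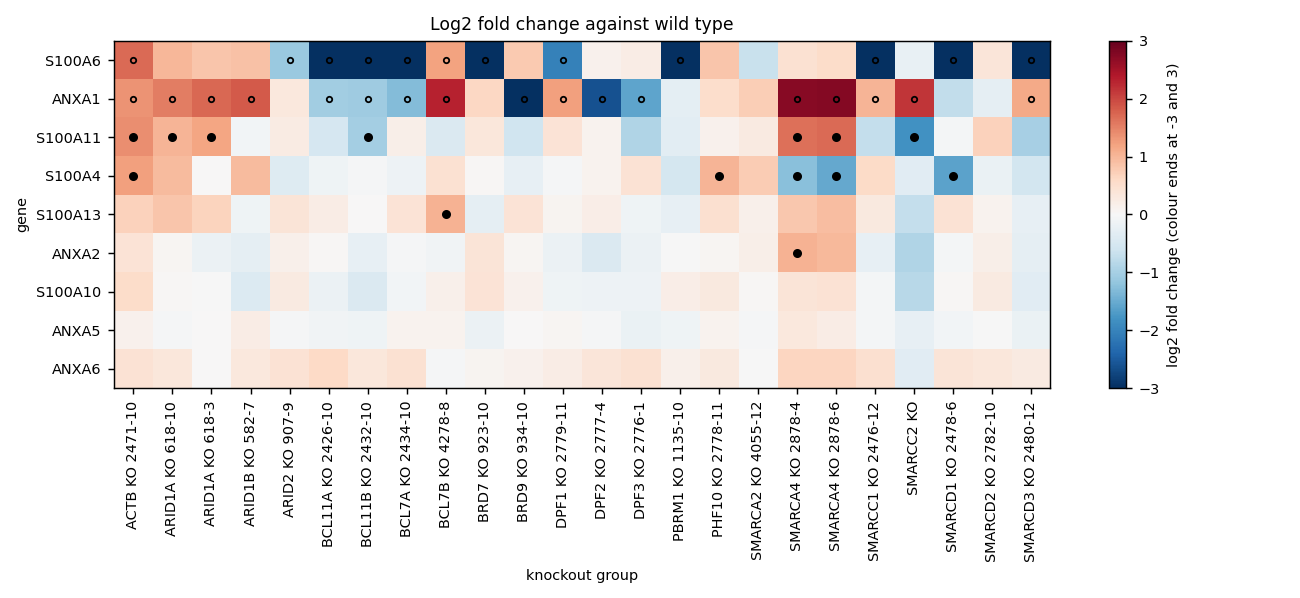
Log2 fold change against wild type for 9 fitted genes (rows) in 24 clones (columns), with colours ending at -3 and 3. Filled dots mark the 14 calls of the 7 tested genes, and open dots mark a log2 fold change of at least 1 in size for S100A6 and ANXA1, which were not tested. S100A11 and ANXA1 are both high in the SMARCA4, ARID1A and ACTB clones, and the rows of ANXA5 and ANXA6 hold no dot.

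S100A11, the annexin A1 partner known from membrane repair and keratinocyte growth control, was called in more clones than any other tested member. Wild-type libraries had 43.3, 36.6 and 42.2 CPM. SMARCA4 clone 2878-6 had 130, 136 and 130 CPM and clone 2878-4 had 122, 118 and 135 CPM. ACTB knockout had 102, 108 and 106 CPM, and all libraries of these 3 clones and of the ARID1A clones were above wild type. By edgeR's quasi-likelihood test S100A11 rose by 1.71 (SE 0.109, adjusted p = 5.83e-20) and 1.65 (SE 0.109, adjusted p = 2.03e-19) on the log2 scale in the SMARCA4 clones and by 1.39 (SE 0.109, adjusted p = 5.37e-16) in the ACTB clone. In ARID1A clone 618-3 it rose by 1.18 (SE 0.108, adjusted p = 1.62e-13) and in clone 618-10 by 1.01 (SE 0.108, adjusted p = 3.02e-11). The summed fibroblast genes were also above wild type in these clones, at 300 and 330 CPM for SMARCA4, 118 CPM for ACTB and 47.0 and 70.3 CPM for ARID1A, and KIT was lower in the SMARCA4 and ARID1A clones. In the ACTB clone THY1 was called higher (log2 fold change 7.10) and POSTN lower (-1.29), so the fibroblast genes did not all rise there. The sum of the fibroblast genes was also above wild type (26.2 CPM) in clones where S100A11 was not called higher. Among these were BCL7A (87.7 CPM) and SMARCD2 (54.2 CPM), without an S100A11 call. Others were SMARCC2 (33.1 CPM) and BCL11B (37.1 CPM), where S100A11 was called lower. KIT was also called lower in the ARID1B, BRD7 and SMARCC1 clones. Another blood gene, TAL1, was called higher in both ARID1A clones (log2 fold change 1.92 and 2.01) and SMARCA4 clone 2878-6 (1.76). It was called lower in SMARCA4 clone 2878-4 (-2.39) and the ACTB clone (-1.21). The summed blood genes were at 86.8 and 96.2 CPM in the ARID1A clones, against 63.0 CPM in wild type. They were at 78.1 CPM in SMARCA4 clone 2878-6, 26.9 CPM in clone 2878-4 and 48.3 CPM in the ACTB clone. The part of the fibroblast and blood genes in the S100A11 result was not tested.

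In SMARCC2 knockout S100A11 had 13.9, 10.6 and 10.6 CPM and fell by 1.82 on the log2 scale (SE 0.115, adjusted p = 1.43e-19), with no overlap with any other group. ANXA1 was high in the same libraries (log2 difference 2.15, SE 0.176), so the 2 binding partners stood on opposite sides of wild type there. In BCL11B knockout S100A11 fell by 1.01 (SE 0.111, adjusted p = 1.54e-10). The SMARCD3 clone was just short of the fold threshold at -0.998 (adjusted p = 2.37e-10), and past it without knockout replicate 1 (-1.05) or wild-type replicate 2 (-1.07). The calls nearest to the threshold depended on single libraries: for BCL11B the log2 value was -0.96 without wild-type replicate 1, -0.97 without wild-type replicate 3 and -0.93 without knockout replicate 3, and for ARID1A 618-10 it was 0.94 both without wild-type replicate 2 and without knockout replicate 2.

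S100A4 (metastasin), known from motile and mesenchymal cells, was low throughout. Wild type had 2.13, 1.89 and 1.85 CPM, from 38, 42 and 41 counts. In SMARCA4 clone 2878-6 it had 0.863, 0.546 and 0.592 CPM, in clone 2878-4 it had 1.12, 0.929 and 0.373 CPM, and in SMARCD1 knockout 0.734, 0.723 and 0.499 CPM. None of these libraries reached the lowest wild-type library. S100A4 fell by 1.54 (SE 0.302, adjusted p = 3.48e-05) and 1.26 (SE 0.295, adjusted p = 0.000440) on the log2 scale in the SMARCA4 clones and by 1.61 (SE 0.304, adjusted p = 5.79e-05) in the SMARCD1 clone. It thus moved opposite to S100A11 in both SMARCA4 clones. It rose in ACTB knockout (4.85, 3.62 and 5.02 CPM, log2 fold change 1.22, SE 0.255, adjusted p = 0.000235) and in PHF10 knockout (4.11, 3.53 and 4.16 CPM, log2 fold change 1.01, SE 0.256, adjusted p = 0.00607). Without knockout replicate 3 the SMARCA4 2878-4 value was -0.90 (adjusted p = 0.0193), below the fold threshold. The PHF10 value was 0.99 and 0.98 without wild-type replicates 2 and 3, and 0.99 and 0.96 without knockout replicates 1 and 3. It was 0.97 with limma (adjusted p = 0.0563) and 0.98 with a prior count of 2, so neither called it. S100A4 in the ARID1A 618-10 and ARID1B clones was at 0.95 and 0.96 (adjusted p = 0.00455 and 0.00331), and both passed the fold threshold without wild-type replicate 1 (1.01 and 1.02) or knockout replicate 3 (1.01 and 1.19).

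**Figure D4:**
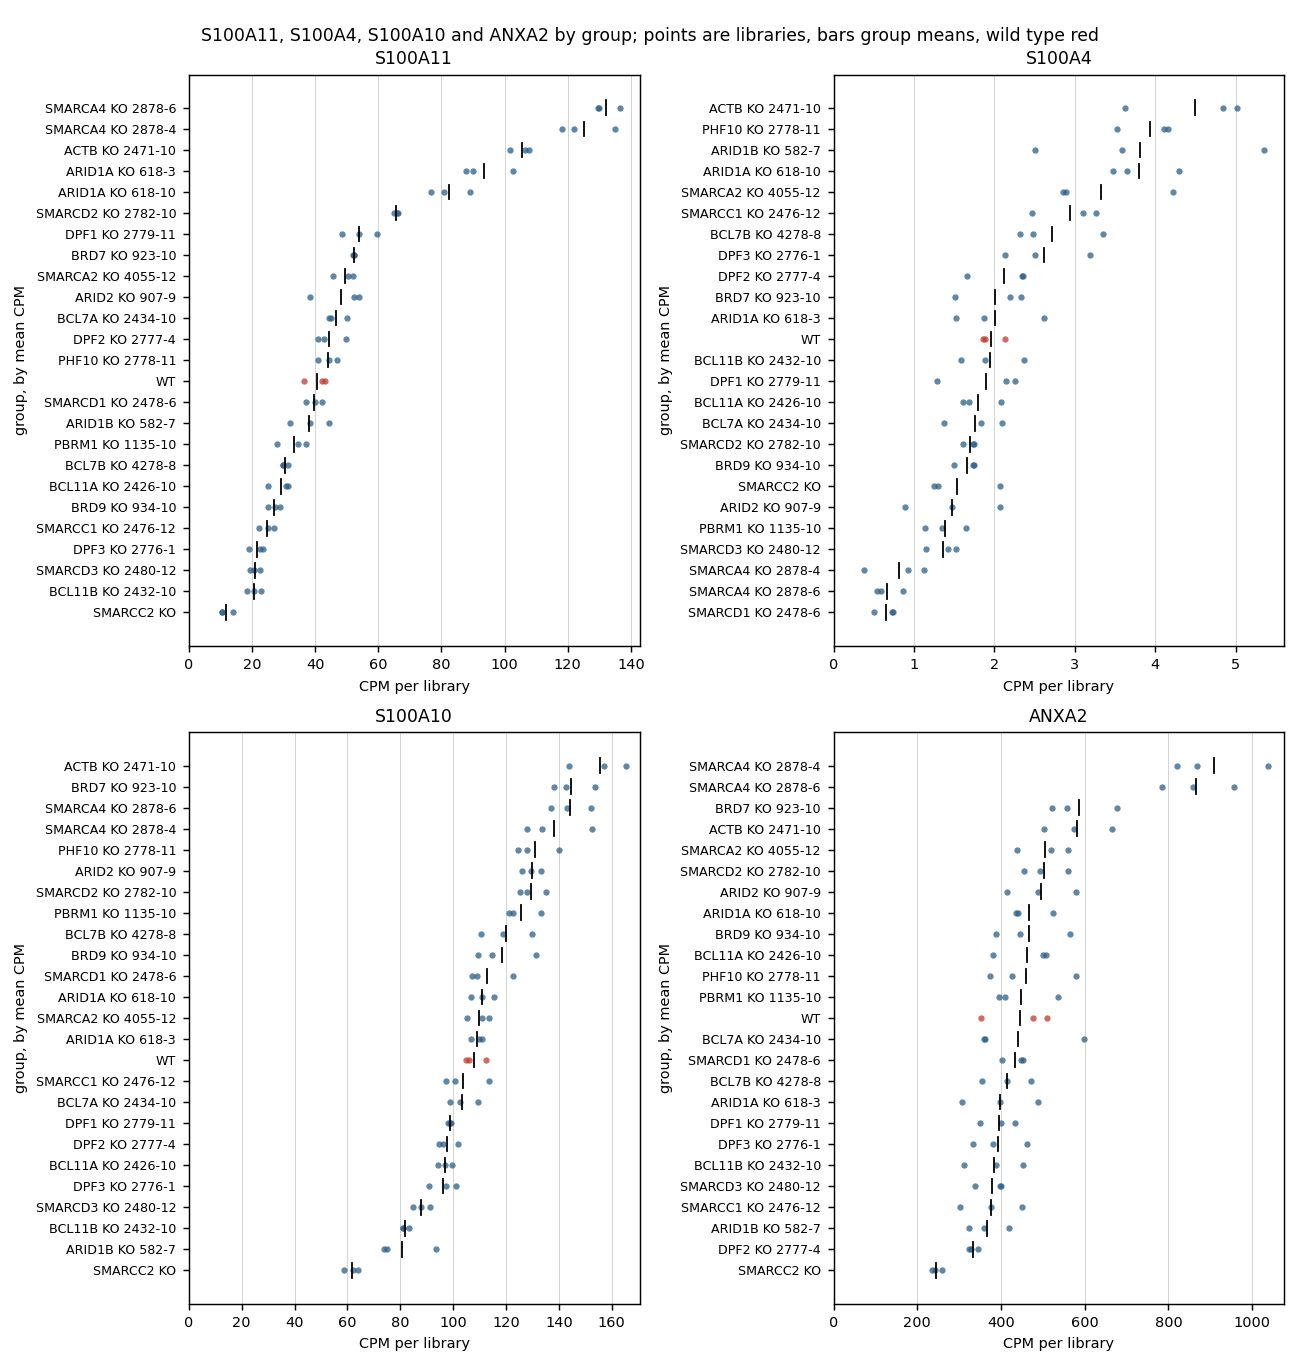
CPM per library for S100A11, S100A4, S100A10 and ANXA2 in 25 groups, each panel ordered by its own mean. Points are libraries, bars are group means and wild type is red. The SMARCA4 clones are at the top for S100A11 and ANXA2 and near the bottom for S100A4, and SMARCC2 knockout is lowest for S100A11, S100A10 and ANXA2.

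S100A10 and ANXA2 are the subunits of the heterotetramer that binds plasminogen and tissue plasminogen activator at the cell surface. In the knockout table the highest group mean was 2.52 times the lowest for S100A10 and 3.70 times for ANXA2. Wild-type libraries had 106, 105 and 112 CPM of S100A10 and 476, 510 and 352 CPM of ANXA2. SMARCC2 knockout was lowest for both, with 62.3, 58.8 and 64.1 CPM of S100A10 and 235, 259 and 242 CPM of ANXA2, and neither overlapped with wild type. There S100A10 differed from wild type by -0.84 (SE 0.0746, adjusted p = 8.81e-14) and ANXA2 by -0.90 (SE 0.188, adjusted p = 0.000151) on the log2 scale, both under the 2-fold threshold. ANXA2 was highest in SMARCA4 clone 2878-4 (819, 1037 and 869 CPM), where it rose by 1.05 (SE 0.188, adjusted p = 6.86e-06). In clone 2878-6 (858, 785 and 957 CPM) the value was 0.97 (SE 0.188, adjusted p = 3.05e-05), just short of a call. The first of these was 0.91 without wild-type replicate 3 and 0.94 without knockout replicate 2, and the second was called without wild-type replicate 1 (1.02), wild-type replicate 2 (1.08) or knockout replicate 2 (1.04). ANXA2 in SMARCC2 knockout was called without wild-type replicate 3 (-1.04). S100A10 was highest in ACTB knockout, at 144, 157 and 165 CPM (log2 fold change 0.55, SE 0.0735, adjusted p = 3.13e-08).

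Across the 25 groups S100A10 and ANXA2 had r = 0.82, the closest of the 28 pairs among the members with 5 CPM or more in some group. S100A11 had r = 0.78 with ANXA2 and 0.74 with S100A10, while its r with ANXA1 was 0.37. These are descriptions over groups that share library depth and scaling. S100A10 was called in no clone, by edgeR or by DESeq2, although 16 of its 24 comparisons had an unadjusted p under 0.05 and 11 passed the adjusted p without the fold threshold (7 higher and 4 lower). Many genes did so: of all 16159 tested, 357 (DPF3 clone) to 5643 (SMARCA4 clone 2878-4) passed the adjusted p alone in a clone.

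S100A13, which takes part in the non-classical release of FGF1, had 29.3, 20.4 and 20.7 CPM in wild type. BCL7B knockout was highest with 45.0, 50.9 and 49.1 CPM, all above wild type (log2 fold change 1.04, SE 0.133, adjusted p = 7.68e-09). This was its only call against wild type, and the value was 0.95 without wild-type replicate 2 and 0.97 without replicate 3. Without the fold threshold, 11 clones passed upward and 1, SMARCC2 knockout (14.4, 14.2 and 15.0 CPM), downward. The SMARCA4 clones were at 0.80 and 0.92 on the log2 scale (adjusted p = 1.45e-06 and 6.48e-08), the latter past the fold threshold without wild-type replicate 1 (1.12).

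ANXA5, the phosphatidylserine binder used to stain dying cells, had the narrowest range of group means among the 10 members in the knockout table. They lay between 107 and 152 CPM, with 124 ± 15.9 CPM (SD, n = 3) in wild type, and its log2 fold changes between -0.26 and 0.31. It was called in no clone by edgeR or DESeq2, and 1 of 24 comparisons had an unadjusted p under 0.05. ANXA6, a large annexin with a doubled core that acts in endocytosis and cholesterol transport, had 200, 120 and 116 CPM in wild type. Its replicates were far apart, and it too was called in no clone by either tool, with 8 of 24 comparisons at an unadjusted p under 0.05. In the SMARCA4 clones ANXA6 was at 0.65 in both (SE 0.209 each, adjusted p = 0.0119 and 0.0121), past the adjusted p but not the fold. For ANXA5 and ANXA6 the libraries of all 24 neighbouring pairs of groups overlapped.

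Levels of different genes were set side by side only per length. The authors' log2 TPM table could not serve for this, because its wild-type values differed from log2 CPM of the counts by a median of 0.02 (SD 0.01) over 10807 genes, with r = -0.04 to transcript length. Divided by the longest coding transcript of GENCODE release 29, wild-type levels were 266 ± 49.6 CPM per kilobase for ANXA2, 89.7 ± 3.41 for S100A10, 70.7 ± 9.04 for ANXA5, 68.5 ± 6.02 for S100A11 and 56.1 ± 18.3 for ANXA6 (SD, n = 3). S100A13 had 34.2 ± 7.37, S100A6 28.8 ± 2.72, ANXA1 22.0 ± 3.21 and S100A4 3.26 ± 0.251 CPM per kilobase. ANXA5, S100A11 and ANXA6 were within their spread of each other, as were S100A13 and S100A6. The transcript in use in HAP1 is not known from these files, so this order rests on the chosen length. ANXA3 stood at the table's minimum or close to it in every library.

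Each knockout was also compared with the mean of all other clones, which leaves wild type out. Here 7 of 154 pairs of the tested members were called higher (4.55%) and 7 lower (4.55%), against 2.32% and 2.12% of the pairs over all genes. S100A11 was higher in SMARCA4 (log2 difference 1.74, SE 0.0473, adjusted p = 1.75e-38), ACTB and ARID1A knockouts and lower in SMARCC2 (-1.98, SE 0.0967, adjusted p = 6.33e-25), BCL11B, SMARCD3 and DPF3 knockouts. S100A4 was higher in ACTB, PHF10 and ARID1B knockouts and lower in SMARCD1 and SMARCA4 knockouts. ANXA2 was higher in SMARCA4 knockout (1.09, SE 0.0875, adjusted p = 3.08e-16) and S100A13 lower in SMARCC2 knockout (-1.03, SE 0.107, adjusted p = 6.33e-12). These comparisons share all their libraries with those against wild type apart from wild type itself and are not independent of them. The calls of S100A4 in ARID1B and PHF10, S100A11 in DPF3 and S100A13 in SMARCC2 fell under the fold threshold when 1 knockout replicate was left out (log2 values 0.81, 0.98, -0.90 and -0.997).

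The 2 clones of ARID1A and the 2 clones of SMARCA4 allow a check within a gene. Over all genes 1.55% of pairs were called between 2 clones of a gene, and 0 of the 14 pairs of tested members were, by edgeR and by DESeq2, with 1 at an unadjusted p under 0.05. That pair was S100A4 in ARID1A, at 4.29, 3.64 and 3.47 CPM in clone 618-10 and 1.87, 2.62 and 1.53 CPM in clone 618-3 (log2 difference 0.94, SE 0.258, adjusted p = 0.0293). The difference was past the fold threshold when knockout replicate 1 was left out. S100A11 differed by -0.17 (SE 0.106) between the ARID1A clones and by -0.06 (SE 0.105) between the SMARCA4 clones.

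Among the double-loss groups, 2 of 35 pairs of the tested members were called higher than wild type with control knockdown (5.71%) and 4 lower (11.4%), against 2.52% and 2.70% of the pairs over all 14601 genes tested. ARID2 knockout with control knockdown stood lowest for several members. S100A11 had 8.42 and 8.54 CPM there against 28.2 and 35.8 CPM in the control, and fell by 1.91 on the log2 scale (SE 0.348, adjusted p = 0.0171). S100A13 had 6.01 and 6.40 CPM against 22.1 and 18.8 CPM and fell by 1.72 (SE 0.218, adjusted p = 0.00177). For both genes these libraries lay below those of all other groups of the table. S100A6 and ANXA1, as a description, had 1.64 and 1.87 CPM and 25.3 and 33.4 CPM there, against 17.1 and 20.8 CPM and 134 and 133 CPM in the control.

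SMARCA4 knockout with control knockdown had 86.4 and 99.8 CPM of S100A11, which rose by 1.50 (SE 0.323, adjusted p = 0.0147). With ARID2 knockdown added it had 70.8 and 69.1 CPM (log2 fold change 1.09, SE 0.321, adjusted p = 0.0499). S100A4 fell in both groups, to 0.425 and 0.265 CPM (-2.45, SE 0.542, adjusted p = 0.0165) and to 0.120 and 0.245 CPM (-3.42, SE 0.628, adjusted p = 0.00441), against 2.36 and 1.40 CPM in the control. The last group held only 2 and 3 counts of S100A4. Summed fibroblast genes were again higher in these groups (100 and 140 CPM, control 30.8 CPM). They were at 34.1 CPM in ARID2 knockout with control knockdown, where S100A11 fell, and 46.3 CPM with SMARCA4 knockdown. Wild type with both knockdowns had 23.8 CPM. The part of the fibroblast genes was not tested. ANXA1 was close to the control in both SMARCA4 knockout groups (106 and 129 CPM, and 127 and 119 CPM).

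With n = 2 most of these calls leaned on single libraries. Leaving out replicate 1 of wild type with control knockdown gave adjusted p-values of 0.0984 and 0.177 for S100A11 in the 2 SMARCA4 knockout groups and 0.110 for S100A4 in SMARCA4 knockout with control knockdown. Leaving out its replicate 2 gave 0.101 for S100A11 in ARID2 knockout and 0.104 in SMARCA4 knockout with ARID2 knockdown. For S100A4, leaving out replicate 1 of the compared groups gave 0.0511 with control knockdown and 0.0501 with ARID2 knockdown, and leaving out replicate 2 gave 0.138 in the former. DESeq2 also did not call S100A4 with control knockdown (adjusted p = 0.0560). The call of S100A13 in ARID2 knockout held in each of these. In ARID2 knockout with SMARCA4 knockdown, which had no call among the tested members, S100A11 was called lower without its replicate 1 (-1.29, adjusted p = 0.0332) and ANXA6 without its replicate 2 (-1.02, adjusted p = 0.00351), and 4 of 7 had an unadjusted p under 0.05. With the replicate number as a block, S100A4 was called lower there (-1.66, adjusted p = 0.0371).

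**Figure D5:**
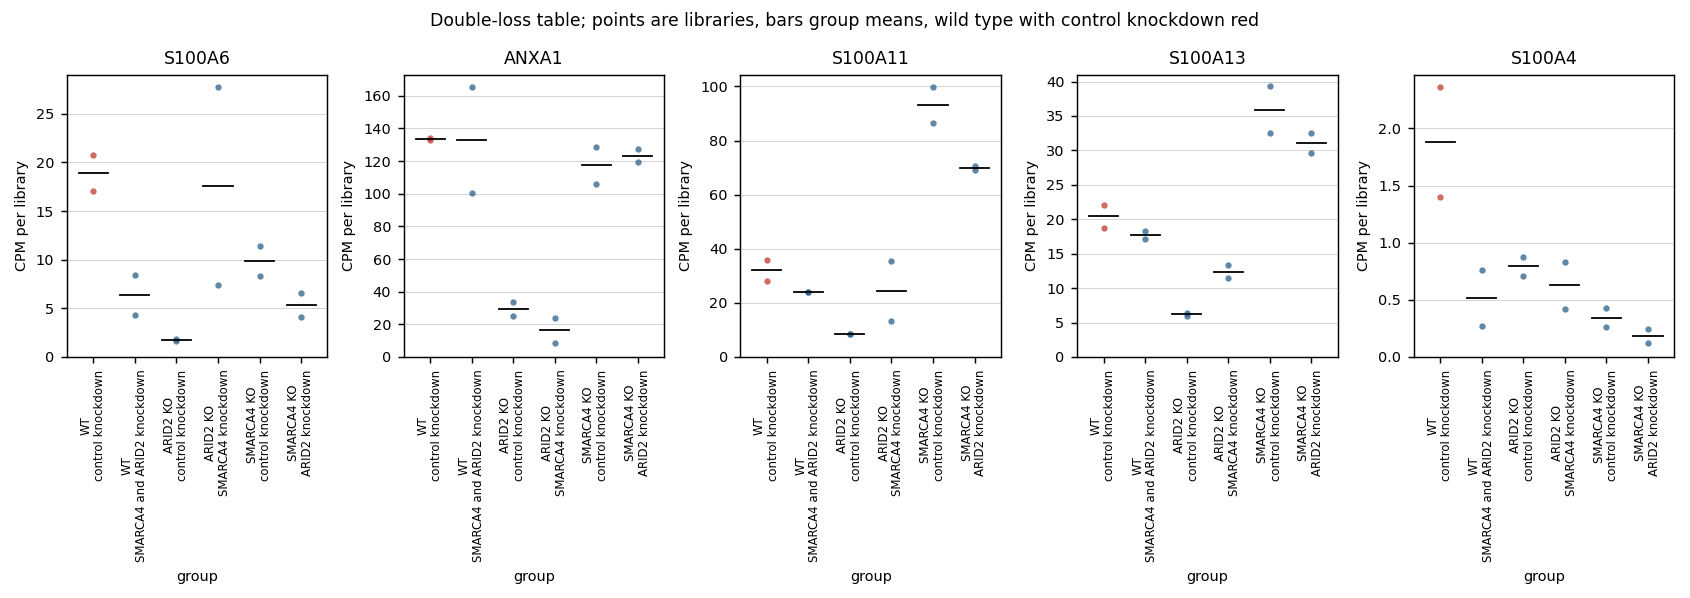
CPM per library for S100A6, ANXA1, S100A11, S100A13 and S100A4 in the 6 groups of the double-loss table. Points are the 2 libraries of each group, bars are means and wild type with control knockdown is red. ARID2 knockout with control knockdown is lowest for S100A6, S100A11 and S100A13, and the libraries of ARID2 knockout with SMARCA4 knockdown lie far apart for S100A6 (27.7 and 7.45 CPM).

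Knockdown of SMARCA4 inside ARID2 knockout cells was compared with control knockdown in the same cells. Of the 14 pairs of tested members in the 2 such comparisons, 1 was called higher and 0 lower, against 0.860% and 0.592% of the pairs over all genes. That was S100A11, which went from 8.42 and 8.54 CPM to 35.4 and 13.2 CPM (log2 fold change 1.45, SE 0.349, adjusted p = 0.0424). Without replicate 1 of the SMARCA4 knockdown the value was 0.62 (adjusted p = 0.903), and without either replicate of the control knockdown the adjusted p was 0.221 or 0.262. S100A6, as a description, went from 1.64 and 1.87 CPM to 27.7 and 7.45 CPM, and ANXA1 from 25.3 and 33.4 CPM to 8.81 and 23.7 CPM. For S100A6 and S100A11 alike, the higher of the 2 knockdown libraries was replicate 1. Knockdown of ARID2 inside SMARCA4 knockout cells gave no call for the 7 tested members by edgeR or DESeq2, with 0 at an unadjusted p under 0.05. In that comparison 3 of all 14601 genes were called higher and 0 lower, so the lack of calls is not particular to the members. The comparison inside ARID2 knockout cells gave 248 and 173. Mean ARID2 in SMARCA4 knockout cells was 40.8 CPM with control knockdown and 25.8 CPM with ARID2 knockdown. S100A11 was at -0.41 in SMARCA4 knockout cells (SE 0.315, adjusted p = 0.937).

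The same knockouts could be set beside each other across the tables, which were scaled and fitted separately and have their own wild type. For SMARCA4 knockout S100A11 was at 1.65 and 1.71 in the clones of the knockout table and at 1.50 in the double-loss groups, and S100A4 at -1.26, -1.54 and -2.45. ANXA1 was at 2.74 and 2.76 in the clones and at -0.23 in the double-loss table. For ARID2 knockout S100A11 was at 0.26 in the knockout table and -1.91 in the other, S100A13 at 0.40 and -1.72, ANXA1 at 0.32 and -2.18, and S100A6 at -1.11 and -3.42. Wild-type means of ANXA1 were 48.6 CPM in the knockout table and 134 CPM with control knockdown. Since no clone is named for the double-loss knockouts, clone and table cannot be told apart.

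Of 15 other S100 genes, 7 passed the filter, and in 168 pairs 14 were called higher (8.33%) and 2 lower (1.19%) than wild type, against 2.46% and 2.24% over all genes. None had a group mean of 5 CPM. S100A3, S100A9 and S100A14 gave 3, 1 and 1 of the higher calls. Their median group means were 0.07741, 0.04984 and 0.1003 CPM, and their highest were 0.6281, 2.534 and 0.9 CPM. Genes this low in most groups pass the filter on low counts through their highest groups, which favours higher calls. The share of 8.33% is thus a description, and its distance from all genes was not tested. S100A16, picked after its values were seen, gave 9 of the 14 higher calls and 1 of the lower, with 0.281 ± 0.0963 CPM in wild type and 2.72 ± 0.427 CPM in SMARCA4 clone 2878-4 (SD, n = 3). S100A9, the calprotectin subunit of myeloid cells, was also picked after its values were seen. Every wild-type library stood at the lowest possible value of 1 count for it (mean 0.0487 CPM). SMARCC2 knockout had 2.53 ± 1.59 CPM. Of 9 other annexin genes 5 were tested, and 0 of 120 pairs were called, with 21 at an unadjusted p under 0.05 and 13 past the adjusted p alone. Between 357 and 5643 of all 16159 genes tested passed the adjusted p alone in a clone. The median log2 fold change was 0.09 for the other S100 genes and 0.14 for the other annexins.

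Of 17 genes for partners, ligands and receptors of both families 10 were tested, and in 240 pairs 22 were called higher (9.17%) and 27 lower (11.2%), from 4 genes, against the same 2.46% and 2.24% over all genes. MYOF, a ferlin of membrane repair, rose in 11 clones and fell in 9. It had 4.06 ± 0.894 CPM in wild type, 191 ± 55.0 and 181 ± 25.9 CPM in the SMARCA4 clones and 0.266 ± 0.0367 CPM in SMARCC2 knockout (SD, n = 3). DLC1, which binds S100A10, was lower in 15 clones and higher in none, with 7.77 ± 0.361 CPM in wild type and 0.101 ± 0.00690 CPM in SMARCC1 knockout. Its median group mean was 2.55 CPM, below wild type. Compared with the other clones, which leaves wild type out, DLC1 was called higher in 9 knockouts and lower in 7. SYT1, which joins S100A13 in FGF1 release, was higher in 5 clones and lower in 3, with 1.19 CPM in wild type and 19.6 ± 4.48 CPM in BCL7B knockout. PLAT, the tissue plasminogen activator, named after its values were seen since no group reached 5 CPM, was higher in 6 clones. CACYBP, AHNAK and MYH9, each bound by an S100 protein, were called in no clone by edgeR, with 2, 4 and 10 of 24 comparisons at an unadjusted p under 0.05. Without the fold threshold, 1, 0 and 6 of them passed the adjusted p. The highest log2 fold change of MYH9 was 0.98, just short of the threshold.

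Of 15 other EF-hand genes, among them the calmodulins, calpains and reticulocalbins, all were tested. In 360 pairs 1 was called higher (0.278%) and 2 lower (0.556%), below the 2.46% and 2.24% of all genes, each of them GCA (grancalcin), which had 2.71 ± 0.368 CPM in wild type, 6.73 ± 1.08 CPM in ACTB knockout and 0.602 ± 0.214 CPM in SMARCC1 knockout. The median log2 fold change of this list was 0.04.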

How the data were processed

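RNA-seq gene tables of HAP1 cells were analysed. Per the labels' protocols, polyadenylated RNA gave stranded libraries that were sequenced as single reads. The submitters' processing notes name Trimmomatic, Bowtie, Picard and DESeq2 with the builds GRCh37 and hg19; the counter, its annotation, which strand setting it used and how it treated shared reads were not given in the sources used here. The 2 deposited gene tables hold expected counts, all whole numbers of at least 1, so rounding changed none. The authors' other table, log2 TPM after quantile normalization per its header, matched log2 CPM and was not length-scaled, so it served as an alternative only; 8 columns that no labelled sample matched were left out. Counts were fitted per table in R 4.3.3 with edgeR 4.0.16 (filterByExpr, TMM, robust quasi-likelihood F-test, 1 term per group, Benjamini-Hochberg over all genes tested). Calls required adjusted p at most 0.05 with a log2 fold change of at least 1 in size. SE is the absolute log2 fold change over the square root of F. DESeq2 1.42.0, limma 3.58.1, other scaling, filters, prior counts, a replicate block and leaving out each replicate were alternatives. Correlations used log2 CPM with a prior count of 2.

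The members, lists and tests were chosen with earlier results of these data known. Named are each member's most extreme groups and calls, and from other lists called genes with a group mean of at least 5 CPM, at most 4 a list; exceptions are stated. A gene listed under 1 symbol may include reads of near-identical or overlapping genes.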

Additional observations from a re-analysis of the deposited data

How the results depend on the processing

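Of 35 calls of the tested members over all comparisons, 19 were kept under every alternative and none of the 35 changed sign. The limma alternative did not cover SMARCC2 knockout. Against wild type, the 9 higher and 5 lower calls became 34 and 17 of 168 pairs on the adjusted p alone. Of all 16159 genes tested, 357 (DPF3 clone) to 5643 (SMARCA4 clone 2878-4) passed the adjusted p alone in a clone. Leaving out a wild-type replicate gave 6 to 14 higher and 4 to 6 lower calls, and leaving out a knockout replicate 8 to 10 higher and 3 to 6 lower. The 14 came without wild-type replicate 1, which added S100A4 in the ARID1A 618-10 and ARID1B clones, S100A13 in ARID1A 618-10 and SMARCA4 2878-6, and ANXA2 in SMARCA4 2878-6, while the 3 came without knockout replicate 3. Between clones of a gene, leaving out a knockout replicate gave 0 to 1 higher calls. In the double-loss table the 2 higher calls became 1 with no filter on low counts and 0 to 1 without a wild-type replicate. The single call of SMARCA4 knockdown in ARID2 knockout cells was lost without either control replicate and without replicate 1 of the knockdown (0 to 1 over the replicates left out). In the order of the wild-type levels, 4 of 10 members kept the rank of the authors' table when CPM was divided by transcript length, an alternative chosen after seeing the data; the order by CPM kept all 10.

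The replicate numbers were not taken to pair the samples. In the knockout table every same-numbered pair correlated above 0.1 in only 5 of 24 clones, and the 2 numbers of the double-loss table are too few to tell (r 0.0929 to 0.527). With the replicate number as a block, higher and lower calls were 9 and 6 against wild type, 7 and 7 against the other clones, 2 and 5 in the double-loss table (the added call was S100A4 in ARID2 knockout with SMARCA4 knockdown) and 1 and 0 inside a knockout.

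ANXA3 and S100A4 were limited by depth, and with n = 2 the calls of the double-loss table turned on single libraries.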
